A study of Mus musculus with 16 samples.

Results

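The genes described here are 41 members of the glutathione system and of the targets of NRF2, chosen by name from 49585 genes in the count table: NRF2 itself (Nfe2l2) and its inhibitor Keap1, 5 genes of glutathione synthesis and recycling, Nqo1 and Hmox1, 6 genes of the thioredoxin system, 17 glutathione S-transferases (GST), 4 genes of the pentose phosphate pathway, catalase and both intracellular superoxide dismutases, and 2 exporters of glutathione conjugates. They were chosen with earlier results of these data known. All 41 were found in the table and all 41 passed the filter on low counts. RNA was sequenced from 16 cultures of mouse small intestinal organoids, which are crypt-derived epithelial structures grown in Matrigel. They came from Atg16l1 fl/fl mice without Cre (hereafter fl/fl) or from Atg16l1 fl/fl mice carrying villin-Cre, which deletes the floxed autophagy gene in intestinal epithelial cells (Atg16l1 ΔIEC, hereafter ΔIEC). The floxed allele was thus shared by every culture. The mice of the study were 8 to 12 wk old on a C57BL/6 background. Organoids were stimulated 3 to 6 d after passage, either left untreated or given recombinant murine IL-22 at 10 ng/ml for 24 h, giving 4 groups of 4 cultures. The labels number 2 organoid lines in each genotype and 2 cultures of each line per treatment. Values below are listed in the order of the cultures, those of the first line (replicates 1 and 2) before those of the second (replicates 3 and 4), so n = 4 stands for cultures of 2 lines and the p-values measure the spread between cultures.

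Glutathione is the main small thiol of the cell. It is made by glutamate-cysteine ligase and glutathione synthetase, is joined to electrophiles by the GST enzymes, is used to reduce peroxides, and is returned to its reduced form by glutathione reductase with NADPH, which the oxidative arm of the pentose phosphate pathway supplies. NRF2 is a transcription factor that KEAP1 marks for degradation until oxidants or electrophiles block KEAP1, and it then activates many of these genes through the antioxidant response element. In the small intestine GST enzymes are abundant in enterocytes, and IL-22 acts on epithelial cells mainly through STAT3.

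The cultures had 2135000 to 5574860 reads on genes, 36.3% to 38.3% of the reads in the table. Values are given as CPM, the counts of a gene scaled to a total of 1000000 counts on the 12559 genes that passed the filter, with library sizes adjusted by the TMM method of edgeR. Atg16l1 checked the labels: it measured 31.6 to 49.2 CPM in fl/fl organoids left untreated and 39.2 to 51.8 CPM in those given IL-22, against 1.21 to 4.15 and 0.289 to 5.96 CPM in ΔIEC organoids. The treated ΔIEC cultures had a mean of 1.84 CPM (SD 2.76), so the culture at 5.96 CPM stood above the others of its group. Epithelial markers were present in every group, while the T cell marker Cd3e and the stromal marker Dcn were at 0 in all 16 cultures, and the sum of 9 stromal markers stayed within 1.62 to 6.40 CPM. The sum of 9 immune markers was higher, at 11.2 to 19.4 CPM. Of these 9, 3 to 5 were at 0 in a group and the others were detected. Fewer cells of a type and less RNA per cell cannot be told apart in these bulk cultures.

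On a scale per length of exon sequence (RPKM, the CPM divided by the union exon length in kilobases), the members spanned a wide range of levels in untreated fl/fl organoids. The union takes in the exons of all annotated isoforms and can exceed the length of a transcript. The order below depends on it. By CPM alone Tkt was the highest, at 1109 CPM with a union of 7355 bases, against 999 CPM for Txn1 with 1051 bases. Txn1, which encodes the disulfide reductase thioredoxin, had the highest mean at 951 RPKM. The mu-class enzymes Gstm3 and Gstm1 followed at 691 and 620.4 RPKM, ahead of the alpha-class Gsta4 at 314, the peroxidase Prdx1 at 304, Txnip at 277 and the pi-class Gstp1 at 238 RPKM. At the other end stood Ggt1 at 6.61, Gsta2 at 7.28, Gstt3 at 8.22 and Mgst2 at 9.36 RPKM. After IL-22 the mean levels of Gstm3 and Gstm1 in fl/fl organoids were 152 and 149.5 RPKM, below those of Gsta4 (245 RPKM) and Gstp1 (189.7 RPKM). Transcripts of some members share stretches of 50 bases with other genes, which can blur their counts: 49.8% of such stretches in Gsta2, 33.7% in Gstp1, 28.8% in Gstm3, 21.0% in Sod2, 18.9% in Gstm1, 12.5% in Gstt3 and at most 8.29% in any other member.

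IL-22 lowered all 5 mu-class GST genes, catalase and the exporter Abcc2 in both genotypes, and raised heme oxygenase, glutathione reductase and sulfiredoxin. In fl/fl organoids 4 of 41 members rose and 16 fell at an adjusted p under 0.01, where 10.6% of the 12559 tested genes rose and 10.2% fell (20.8% in all). In ΔIEC organoids 7 members rose and 12 fell, against 9.83% and 7.65% of all tested genes (17.5% in all). The 4 treated cultures lay wholly above the 4 untreated ones at 7 members and wholly below them at 19 in fl/fl organoids, as they did at 15.4% and 15.4% of all genes, and at 9 and 14 members in ΔIEC organoids, beside 14.1% and 13.2%. The median log2 fold change of the members was -0.33 in fl/fl and -0.13 in ΔIEC organoids, beside -0.05 and -0.01 over all tested genes. The 2 sets of cultures are separate, though the same fit, with a shared estimate of the spread, gave both tests. In both, 15 members passed, 4 higher and 11 lower, which is 15 of the 20 called in fl/fl and 15 of the 19 called in ΔIEC. The overlap over all tested genes was not counted, so this overlap is not read as particular to the members. A further 17 members passed in neither genotype.

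**Figure D1:**
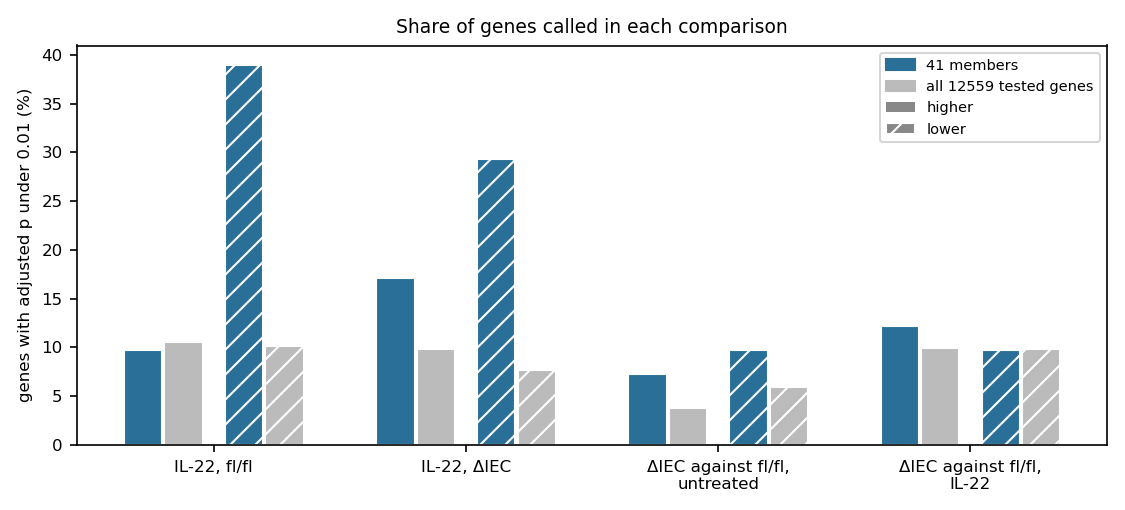
Share of genes (%) with an adjusted p under 0.01 in each comparison, for the 41 members (blue) and for all 12559 tested genes (grey), higher plain and lower hatched. With IL-22 in fl/fl organoids 39.0% of the members and 10.2% of all genes were lower, and in ΔIEC organoids 29.3% and 7.65%.

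Neither regulator passed the threshold with IL-22 in either genotype. In the fl/fl lines Nfe2l2 measured 395, 380.0, 394 and 370.5 CPM without and 443, 460.2, 408 and 444 CPM with the cytokine. Treated and untreated cultures did not overlap, and the log2 fold change of 0.19 (SE 0.065, adjusted p = 0.0308) missed the threshold. ΔIEC cultures gave 382, 392, 406 and 379 CPM untreated and 449, 425, 445 and 487 CPM treated. Here the log2 fold change was 0.21 (SE 0.065, adjusted p = 0.0187), and with organoid line as a block it passed at 0.21 (adjusted p = 0.00618). Keap1 lay at 104 to 118 CPM untreated and 95.6 to 102 CPM with IL-22 in fl/fl, and at 92.9 to 118 and 98.0 to 118 CPM in ΔIEC organoids, with log2 fold changes of -0.14 (SE 0.081, adjusted p = 0.202) and 0.01 (SE 0.082, adjusted p = 0.935). The transcript level says nothing of NRF2 protein, whose amount is set largely by degradation.

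Among the genes of glutathione synthesis and recycling, glutathione reductase Gsr rose in both genotypes. In fl/fl cultures Gsr measured 442, 483, 490.0 and 460.4 CPM without and 904, 863, 850.0 and 871 CPM with the cytokine. The values in ΔIEC cultures were 456, 453, 421 and 402 CPM untreated and 903, 913, 827 and 818 CPM treated. No treated culture fell below an untreated one in either genotype. The log2 fold change was 0.90 (SE 0.067, adjusted p = 7.63e-09) in fl/fl and 1.00 (SE 0.068, adjusted p = 1.45e-09) in ΔIEC organoids. Gclm, the modifier subunit of glutamate-cysteine ligase, measured 151, 170.0, 157 and 144 CPM untreated and 89.5, 90.7, 83.5 and 82.4 CPM with IL-22 in fl/fl organoids, and 179, 159, 128 and 148 and 156, 123, 124 and 131 CPM in ΔIEC organoids. The fl/fl groups were separate and the ΔIEC groups overlapped. Its log2 fold change was -0.85 (SE 0.10, adjusted p = 2.34e-06) in fl/fl and -0.22 (SE 0.10, adjusted p = 0.107) in ΔIEC. The catalytic subunit Gclc did not pass in either genotype, with 0.16 and 0.25 on the log2 scale. Gss, which completes the tripeptide, rose in ΔIEC organoids by 0.44 (SE 0.085, adjusted p = 0.0005), from 214 to 231 to 279 to 325 CPM, and had 0.26 (SE 0.084, adjusted p = 0.0208) in fl/fl, where it passed with organoid line as a block at 0.27 (adjusted p = 0.00137). The call on Gss in ΔIEC was lost without either ΔIEC line, with 0.33 (adjusted p = 0.0914) without line 1292 and 0.52 (adjusted p = 0.0102) without line 1290. A fit without a line keeps 2 cultures of 1 line per treatment in that genotype. A call lost in such a fit, here and below, does not by itself show a smaller effect. Ggt1, a surface enzyme that cleaves glutathione, had wide standard errors and log2 fold changes of -0.47 (SE 0.31, adjusted p = 0.261) and -0.16 (SE 0.29, adjusted p = 0.731); the ΔIEC lines differed, at 35.4, 34.7, 27.7 and 13.3 CPM untreated.

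Of Nqo1 and Hmox1, which are often read as indicators of NRF2 activity, IL-22 moved each the opposite way in fl/fl organoids. Hmox1, which degrades heme, measured 27.5, 25.3, 12.2 and 19.8 CPM untreated and 70.9, 71.5, 60.6 and 64.1 CPM with IL-22 in fl/fl organoids. The ΔIEC cultures gave 13.7, 17.5, 21.7 and 14.5 CPM untreated and 34.4, 42.0, 72.5 and 57.6 CPM treated. Every treated culture was above every untreated culture of its genotype, and the second ΔIEC line reached a higher level than the first. The log2 fold change was 1.61 (SE 0.21, adjusted p = 7.51e-06) in the fl/fl and 1.64 (SE 0.22, adjusted p = 1.20e-05) in the ΔIEC cultures. The quinone reductase Nqo1 fell in fl/fl organoids, from 80.4, 93.4, 84.3 and 91.2 CPM to 61.0, 51.6, 59.3 and 55.7 CPM, with a change of -0.62 (SE 0.11, adjusted p = 0.000252) on the log2 scale. This call was lost without either fl/fl line, at an adjusted p of 0.0137 to 0.0139, with -0.58 without line 1293 and -0.64 without line 1294. In ΔIEC organoids the Nqo1 groups overlapped, at 76.8 to 109.6 and 58.0 to 82.6 CPM, and the value of -0.40 (SE 0.11, adjusted p = 0.0106) passed with organoid line as a block, at -0.39 (adjusted p = 0.000939).

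In the thioredoxin system, sulfiredoxin Srxn1, which repairs overoxidized peroxiredoxins, rose in both genotypes. In the fl/fl lines Srxn1 measured 213, 197, 181 and 169 CPM without and 274, 266, 256 and 268 CPM with the cytokine. ΔIEC cultures gave 173, 178, 169.7 and 157 CPM untreated and 233, 218, 247 and 238 CPM treated. The groups were separate in both genotypes, with log2 fold changes of 0.49 (SE 0.075, adjusted p = 5.49e-05) and 0.46 (SE 0.076, adjusted p = 9.95e-05). The ΔIEC call was lost without line 1292, at 0.33 with an adjusted p of 0.0560. Txn1 rose in ΔIEC organoids from 995, 966, 953 and 937 CPM to 1411, 1283, 1159 and 1211 CPM, a change of 0.39 (SE 0.066, adjusted p = 0.000136) on the log2 scale, and had 0.13 (SE 0.066, adjusted p = 0.141) in fl/fl. Prdx6, a peroxidase that takes its electrons from glutathione, rose in ΔIEC organoids from 385 to 413 to 477 to 525 CPM, with 0.32 (SE 0.064, adjusted p = 0.000699), a call that was lost without either ΔIEC line (adjusted p up to 0.0970), and had 0.18 (SE 0.064, adjusted p = 0.0322) in fl/fl. Txnrd1, which reduces thioredoxin, Txnip, which binds and inhibits it, and Prdx1 passed in neither genotype, with log2 fold changes between -0.12 and 0.21. With organoid line as a block Txnrd1 passed in ΔIEC organoids at 0.21 (adjusted p = 0.00905).

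**Figure D2:**
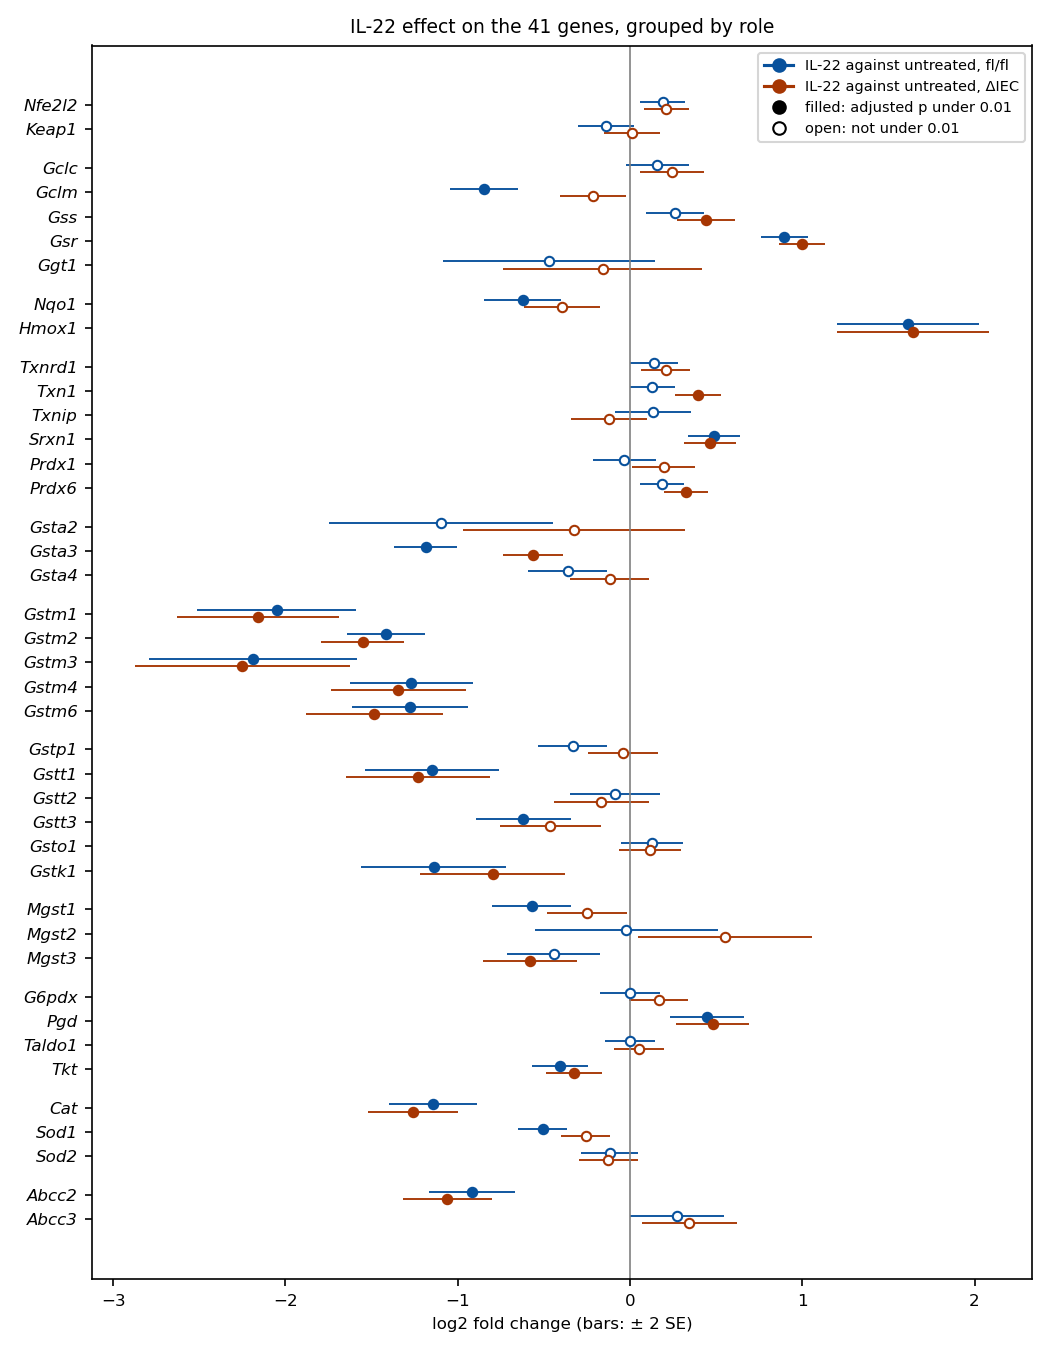
Log2 fold change of IL-22 against untreated (horizontal axis, bars 2 SE to each side) for each of the 41 genes grouped by role, in fl/fl (blue) and ΔIEC organoids (brown), filled where the adjusted p was under 0.01. The 5 mu-class genes lie between -1.27 and -2.25 in both genotypes, and Hmox1 lies at 1.61 and 1.64.

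Of the 17 GST genes, 10 fell in fl/fl and 9 in ΔIEC organoids, beside 10.2% and 7.65% of all tested genes, and the others did not pass. The median log2 fold change of the 17 genes was -1.10 and -0.56. All 5 mu-class genes, which lie side by side on chromosome 3 (107938847 to 108044894, GRCm38), fell in both genotypes. In fl/fl cultures Gstm1 measured 807, 872, 892 and 1084 CPM without and 196, 211, 253 and 221 CPM with the cytokine. The values in ΔIEC cultures were 782, 741, 434 and 424 CPM untreated and 179, 184, 85.5 and 88.6 CPM treated. Treated and untreated cultures were far apart in each genotype, and in ΔIEC organoids the second line was lower than the first with and without IL-22. The log2 fold change of Gstm1 was -2.05 (SE 0.23, adjusted p = 1.66e-06) in fl/fl and -2.16 (SE 0.24, adjusted p = 9.88e-07) in ΔIEC organoids. Gstm3 measured 847, 858, 938 and 982 CPM untreated and 187, 169, 220.2 and 218 CPM with IL-22 in fl/fl organoids, and 609, 632, 328 and 312 and 167, 136, 43.5 and 54.7 CPM in ΔIEC. Its log2 fold change was -2.19 (SE 0.30, adjusted p = 1.70e-05) and -2.25 (SE 0.31, adjusted p = 1.72e-05), respectively. Gstm2, read with a smaller error, went from 96.7, 103, 91.1 and 97.9 CPM to 36.4, 39.7, 32.7 and 37.5 CPM in fl/fl and from 86.1, 87.6, 74.8 and 70.2 CPM to 31.6, 32.4, 25.4 and 20.5 CPM in ΔIEC organoids. The groups of Gstm2 did not overlap in either genotype, and its log2 fold change was -1.41 (SE 0.11, adjusted p = 1.77e-08) and -1.55 (SE 0.12, adjusted p = 1.03e-08). Gstm4 and Gstm6, at 54.3 to 67.5 and 58.9 to 75.3 CPM in untreated fl/fl organoids, fell as well, with log2 fold changes of -1.27 and -1.27 there and of -1.34 and -1.48 in ΔIEC organoids, with adjusted p-values of at most 2.98e-05.

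The summed level of the 5 mu-class genes was 1879, 1971, 2037 and 2289 CPM in fl/fl organoids left untreated and 469, 479, 554 and 529 CPM in those given IL-22, and 1584, 1549, 908 and 863 and 418, 387, 181 and 188 CPM in ΔIEC organoids. Enterocyte markers moved with IL-22 in the same cultures: of 15 markers, 10 fell in fl/fl organoids and 8 in ΔIEC, the others did not pass, and none was at 0 in any group. Their summed level ranged from 4978 to 5748 CPM in fl/fl organoids left untreated and from 2354 to 2955 CPM in those given IL-22, and from 4744 to 5830 and 2342 to 3547 CPM in ΔIEC organoids. Other marker lists moved too. Stem cell markers fell at 3 of 10 in fl/fl and 5 of 10 in ΔIEC, with sums of 2002 to 2412 CPM untreated and 1146 to 1255 CPM treated in fl/fl and of 2577 to 2841 and 1255 to 1578 CPM in ΔIEC. Proliferation markers fell at 9 of 10 and 3 of 10, Paneth cell markers rose at 2 of 10 in each genotype, and goblet cell markers rose at 3 and fell at 1 of 9 in fl/fl and rose at 2 and fell at 2 in ΔIEC. Over all tested genes 10.6% rose and 10.2% fell in fl/fl, against 9.83% and 7.65% in ΔIEC organoids. The part of these markers in the IL-22 effects on the members was not tested.

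**Figure D3:**
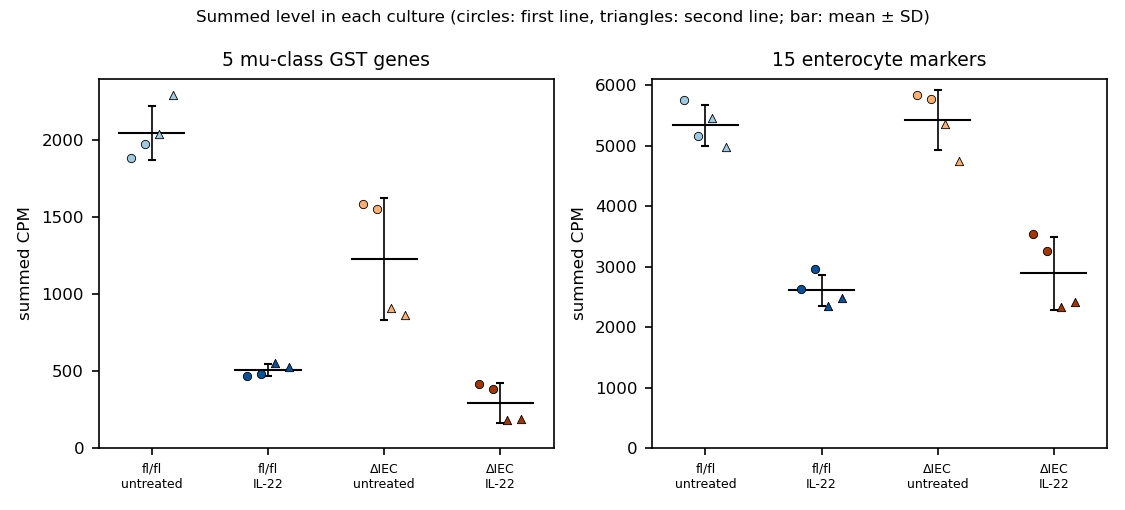
Summed CPM of the 5 mu-class GST genes (left) and of 15 enterocyte markers (right) in each culture, circles for the first and triangles for the second line of a genotype, with the mean and SD of 4 cultures. Both sums were lower in every treated culture than in every untreated culture of its genotype, and untreated ΔIEC organoids had 863 to 1584 CPM of mu-class genes, below the 1879 to 2289 CPM of fl/fl organoids, while their enterocyte sums overlapped.

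RefSeq (GRCm38.p6) gives 9 windows from 250 bases before to 50 after a start for the 5 mu-class genes. The window nearest the GENCODE gene start was taken for each, and these 5 were 52.3% to 57.3% identical to each other in pairs. The stretches of 250 bases before Gstm1, chr3:108017974-108018223 (minus strand), and Gstm3, chr3:107969175-107969424 (minus strand), are printed because these genes had the largest falls with IL-22 among the members. Capitals mark TTCNNNNGAA, a spaced palindrome related to the STAT motif TTCNNNGAA; matches were searched on both strands. The other window of Gstm1 holds no match, and no window of Gstm1 or Gstm3 holds TTCNNNGAA.
Gstm1: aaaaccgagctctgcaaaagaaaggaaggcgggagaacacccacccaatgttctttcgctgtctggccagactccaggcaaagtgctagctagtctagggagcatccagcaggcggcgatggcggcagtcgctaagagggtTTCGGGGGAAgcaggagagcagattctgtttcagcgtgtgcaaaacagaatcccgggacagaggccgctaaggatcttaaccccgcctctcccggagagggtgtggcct
Gstm3: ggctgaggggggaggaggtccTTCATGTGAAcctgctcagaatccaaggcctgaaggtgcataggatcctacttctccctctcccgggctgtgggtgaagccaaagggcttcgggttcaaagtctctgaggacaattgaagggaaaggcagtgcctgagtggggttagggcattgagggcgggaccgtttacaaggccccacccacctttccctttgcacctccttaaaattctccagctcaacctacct
TTCNNNNGAA was found in 5 of 46 windows of the members, belonging to Gstm1, Gstm3, Gstm6 and Pgd, and in 6.95% of 32851 RefSeq windows of the same length. TTCNNNGAA was found in 6 of 46, belonging to Txnrd1, Gstm6, Mgst1, Mgst2 and Sod2, and in 8.3% of all windows. A match is a run of letters in the reference and not evidence of binding.

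Of the alpha class, Gsta3 fell in both genotypes. In the fl/fl lines Gsta3 measured 140.0, 164, 163 and 156 CPM without and 71.3, 73.9, 63.1 and 65.6 CPM with the cytokine. The ΔIEC cultures gave 259, 260.3, 238 and 216 CPM untreated and 190.4, 147, 161 and 162 CPM treated. The groups were separate in each genotype and the log2 fold changes were -1.19 (SE 0.092, adjusted p = 1.18e-08) and -0.56 (SE 0.087, adjusted p = 5.92e-05). Gsta4, which acts on aldehydes from oxidized lipids, did not pass, with -0.36 (SE 0.11, adjusted p = 0.0205) and -0.12 (SE 0.11, adjusted p = 0.486); with organoid line as a block the fl/fl value passed, at -0.34 (adjusted p = 0.000514). The low-count Gsta2, at 6.42 to 9.93 CPM untreated and 3.56 to 4.49 CPM with IL-22 in fl/fl organoids, had -1.10 (SE 0.32, adjusted p = 0.0136) there, which passed with the block at -1.08 (adjusted p = 0.00277). In ΔIEC organoids the Gsta2 groups overlapped, the value was -0.32 (SE 0.32, adjusted p = 0.499), and the lines went opposite ways, at -0.87 and 0.81 on the log2 CPM scale.

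The theta-class Gstt1 fell in both genotypes, from 67.2, 53.6, 36.7 and 39.1 CPM to 31.7, 26.9, 15.4 and 17.7 CPM in fl/fl and from 38.2, 38.9, 43.4 and 40.7 CPM to 16.2, 17.0, 16.3 and 18.5 CPM in ΔIEC organoids. Its log2 fold change was -1.15 (SE 0.19, adjusted p = 0.000143) and -1.23 (SE 0.21, adjusted p = 0.00016). The ΔIEC call on Gstt1 was lost without either ΔIEC line (adjusted p up to 0.0166), with -1.27 without line 1290 and -1.24 without line 1292. Of its neighbours on chromosome 10, Gstt3 fell in fl/fl organoids, at -0.62 (SE 0.14, adjusted p = 0.00185) there and -0.46 in ΔIEC, and Gstt2 had -0.09 and -0.17. The call on Gstt3 was lost without the untreated fl/fl replicate 2 (adjusted p = 0.0117) and without either fl/fl line (up to 0.0963), and it was gained in ΔIEC with the block at -0.47 (adjusted p = 0.00741). Kappa-class Gstk1, an enzyme of mitochondria and peroxisomes, was low at 11.5 to 19.9 CPM in untreated fl/fl organoids. It fell to 4.79 to 7.95 CPM with -1.14 (SE 0.21, adjusted p = 0.000354), and in ΔIEC organoids from 12.5 to 18.3 to 6.53 to 8.97 CPM with -0.80 (SE 0.21, adjusted p = 0.00734). The ΔIEC call was lost on leaving out any of 7 of the 8 ΔIEC cultures in turn, at adjusted p-values of 0.0118 to 0.0303, and without either ΔIEC line (up to 0.0950), and the fl/fl call without line 1293 (0.0130). The ΔIEC value was -0.81 without line 1290 and -0.86 without line 1292, and the fl/fl value -1.01 without line 1293. Omega-class Gsto1 and pi-class Gstp1 had 0.13 and -0.33 in fl/fl and 0.12 and -0.04 in ΔIEC organoids, and Gstp1 passed in fl/fl with the block at -0.33 (adjusted p = 0.000681).

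The microsomal enzymes are membrane proteins unrelated in sequence to the soluble GSTs. Mgst1 fell in fl/fl organoids, from 248 to 336 to 168 to 214 CPM with -0.57 (SE 0.11, adjusted p = 0.000765), and had -0.25 (SE 0.12, adjusted p = 0.115) in ΔIEC organoids, which passed with the block at -0.25 (adjusted p = 0.00434). The fl/fl call was lost without fl/fl line 1293, at an adjusted p of 0.0241. Mgst3 fell in ΔIEC organoids, from 95.5 to 108 to 58.9 to 80.4 CPM with -0.58 (SE 0.14, adjusted p = 0.003), and had -0.44 (SE 0.13, adjusted p = 0.0155) in fl/fl, which passed with the block at -0.44 (adjusted p = 0.000662). The Mgst3 call in ΔIEC was lost without IL-22–treated ΔIEC replicate 3 (adjusted p = 0.0136) and without either ΔIEC line (up to 0.115). Mgst2 differed between lines, with 23.4, 22.9, 40.5 and 47.6 CPM in treated fl/fl and 83.4, 64.8, 35.4 and 52.1 CPM in treated ΔIEC cultures, and its ΔIEC value of 0.55 (SE 0.25, adjusted p = 0.114) passed with the block at 0.59 (adjusted p = 0.000177).

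Of the 4 pentose phosphate genes, Pgd rose and Tkt fell, and G6pdx and Taldo1 did not pass. Pgd, the later of the enzymes that yield NADPH, rose with IL-22 in both genotypes. In fl/fl cultures Pgd measured 342, 327, 447 and 437 CPM without and 469, 512, 572 and 561 CPM with the cytokine. ΔIEC cultures gave 626, 624, 579.9 and 537 CPM untreated and 758, 951, 750.4 and 843 CPM treated. Treated cultures lay above untreated ones in each genotype, with the fl/fl lines at different levels, and the log2 fold changes were 0.45 (SE 0.11, adjusted p = 0.00307) and 0.48 (SE 0.11, adjusted p = 0.0018). The fl/fl call on Pgd was lost without any of 4 fl/fl cultures (untreated replicates 1 and 2, treated replicates 3 and 4), at adjusted p-values of 0.0105 to 0.0139, and without line 1293 (0.0222), and the ΔIEC call without either ΔIEC line (up to 0.0986). G6pdx, the rate-limiting enzyme of the pathway, did not pass, with -0.00 (SE 0.088, adjusted p = 0.998) and 0.17 (SE 0.085, adjusted p = 0.157). Tkt, a transketolase of the nonoxidative arm, fell from 1023 to 1144 to 736 to 904 CPM in fl/fl and from 944 to 1016 to 665 to 839 CPM in ΔIEC organoids, with -0.41 (SE 0.081, adjusted p = 0.000718) and -0.33 (SE 0.082, adjusted p = 0.00486). Leaving out either line of the genotype ended the Tkt call (up to 0.0769), as did leaving out any of 3 ΔIEC cultures (untreated replicates 2 and 4, treated replicate 1; up to 0.0175). Taldo1 had 0.00 and 0.05.

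Catalase, the peroxisomal enzyme that removes hydrogen peroxide, fell in both genotypes. In the fl/fl lines Cat measured 134, 158, 134 and 126 CPM without and 66.5, 63.3, 62.3 and 58.7 CPM with the cytokine. The values in ΔIEC cultures were 158, 146, 115 and 109.6 CPM untreated and 62.8, 66.5, 44.7 and 48.3 CPM treated. No treated culture reached an untreated one, and the log2 fold changes were -1.14 (SE 0.13, adjusted p = 1.51e-06) and -1.26 (SE 0.13, adjusted p = 4.87e-07). Cytosolic Sod1 fell in fl/fl organoids from 329, 326, 308 and 326 CPM to 251, 237, 205 and 215 CPM, with -0.51 (SE 0.072, adjusted p = 2.25e-05), and had -0.26 (SE 0.071, adjusted p = 0.0106) in ΔIEC organoids, where it passed with the block at -0.26 (adjusted p = 0.00141). Mitochondrial Sod2 had -0.12 and -0.13. Abcc2, the apical pump for glutathione conjugates, fell from 341, 304, 348 and 365 CPM to 145, 165, 202 and 204 CPM in fl/fl and from 270.2, 250.3, 215 and 206 CPM to 135, 126, 102 and 90.9 CPM in ΔIEC organoids. Its log2 fold changes were -0.92 (SE 0.12, adjusted p = 1.46e-05) and -1.06 (SE 0.13, adjusted p = 3.62e-06). The basolateral pump Abcc3 had 0.27 and 0.35, both past the threshold with the block, at 0.29 (adjusted p = 0.00679) and 0.31 (adjusted p = 0.00592).

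**Figure D4:**
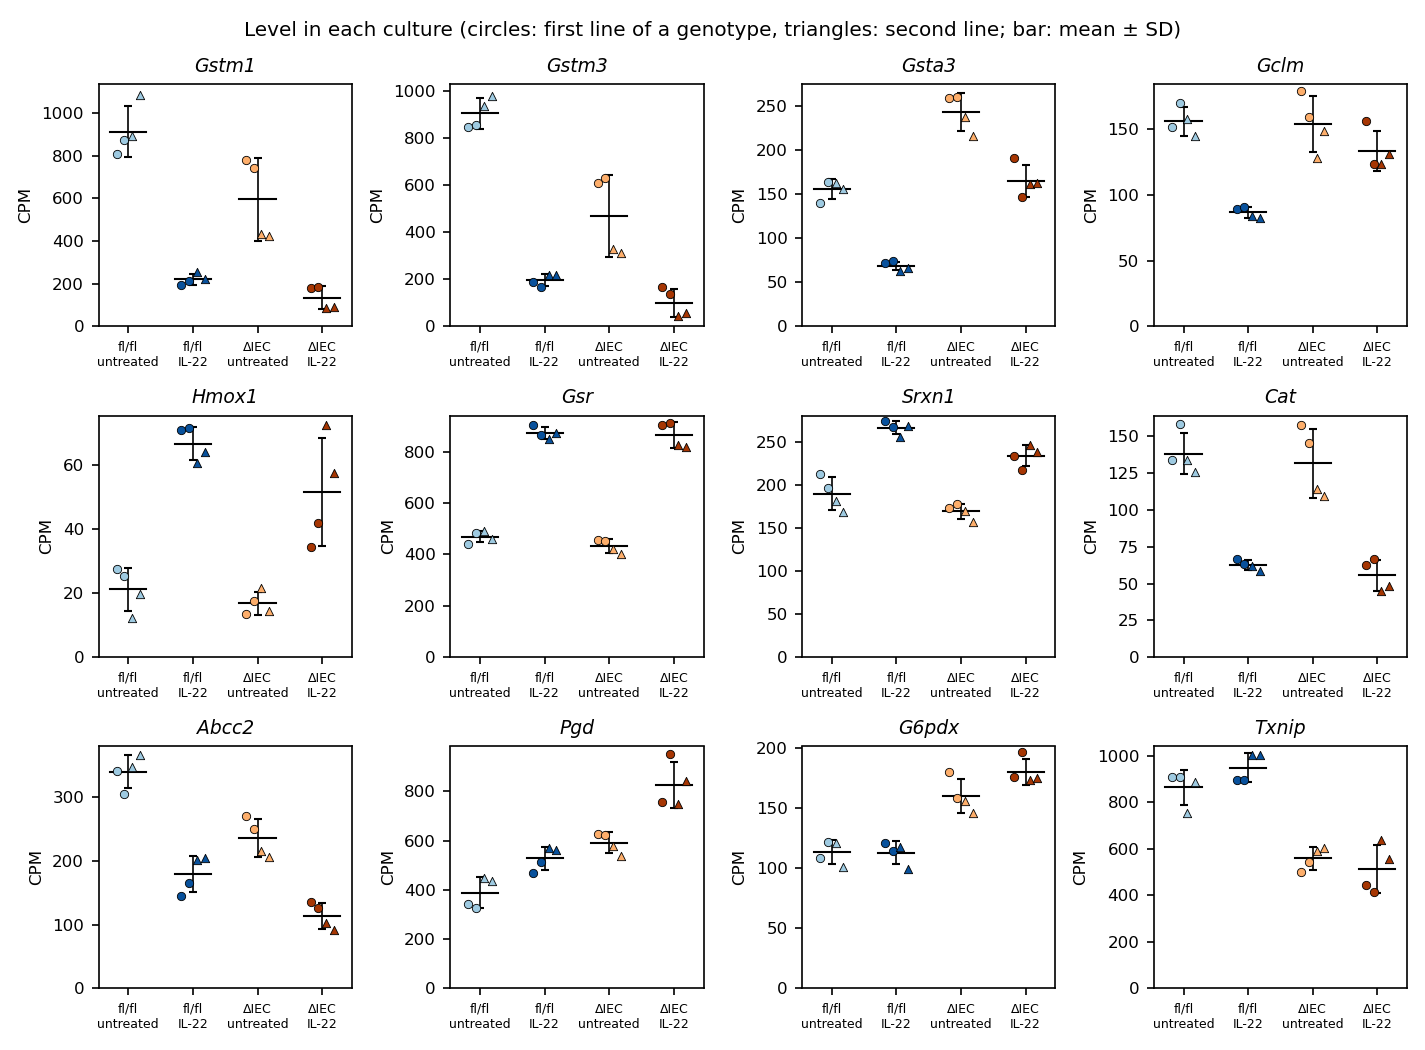
CPM of 12 members in each culture of the 4 groups, circles for the first and triangles for the second line of a genotype, with the mean and SD of 4 cultures; each axis starts at 0. Gstm1, Gstm3, Cat and Abcc2 were lower and Gsr and Hmox1 higher with IL-22 in both genotypes, and G6pdx and Pgd were higher and Txnip lower in ΔIEC organoids.

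When both IL-22 comparisons were fitted with organoid line as a block, 6 members rose and 20 fell in fl/fl organoids, beside 30.6% of all tested genes in either direction, and 11 rose and 16 fell in ΔIEC organoids, beside 25.5%. After the cultures of each line were summed, each group held 2 sums, and the treated and untreated sums came from the same 2 lines. This fit did not pair them. The members past the threshold were Gsr and Hmox1 (higher) and Gclm, Gsta3, Gstm1, Gstm2, Gstm4 and Cat (lower) in fl/fl organoids, beside 3.91% of all genes in either direction. In ΔIEC organoids they were Gsr and Hmox1 (higher) and Gstm1, Gstm2, Gstm4, Cat and Abcc2 (lower), beside 4.58%.

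The genotypes differed at fewer members. In untreated organoids 3 of 41 members were higher and 4 lower in ΔIEC than in fl/fl, where 3.78% of all tested genes were higher and 5.98% lower (9.76% in all). With IL-22, 5 were higher and 4 lower, against 9.91% and 9.84% of all genes (19.8% in all). The genotypes did not overlap at 4 members higher and 11 lower untreated, beside 10.6% and 12.6% of all genes, and at 7 and 9 with IL-22, beside 15.4% and 14.2%. The median log2 difference of the members was -0.11 and -0.03, beside -0.02 and 0.01 over all genes. Gsta3, G6pdx and Pgd were higher, and Txnip, Gstm6 and Abcc2 lower, in both untreated and treated ΔIEC organoids. These 6 are all but 1 of the 7 called untreated and 6 of the 9 called with IL-22, and the matching overlap over all tested genes was not counted. Organoid lines are nested in genotype, so a genotype difference rests on 2 lines against 2: after summing the cultures of a line, 0 members passed untreated by edgeR, beside 0.0721% of all genes (9 had an unadjusted p under 0.05, beside 21.2%), and Gsta3 and G6pdx passed with IL-22, beside 1.36%.

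Gsta3 had the largest genotype difference upwards. Untreated ΔIEC cultures (216 to 260.3 CPM) lay above untreated fl/fl cultures (140.0 to 164 CPM), and treated ones (147 to 190.4 CPM) above treated fl/fl cultures (63.1 to 73.9 CPM). The log2 difference was 0.65 (SE 0.088, adjusted p = 6.97e-05) untreated and 1.27 (SE 0.092, adjusted p = 7.07e-08) with IL-22. Of the enzymes that yield NADPH, G6pdx measured 108, 121, 121 and 101 CPM in untreated fl/fl and 180.1, 158, 156 and 146 CPM in untreated ΔIEC cultures. With IL-22 the values were 121, 114, 118 and 98.9 and 176, 196, 173 and 175 CPM. The genotypes did not overlap under either treatment, and the log2 difference was 0.51 (SE 0.087, adjusted p = 0.000525) untreated and 0.68 (SE 0.086, adjusted p = 1.53e-05) with IL-22. Pgd, with the values given above, had 0.61 (SE 0.11, adjusted p = 0.000627) and 0.64 (SE 0.11, adjusted p = 0.000166). The untreated calls on Pgd and G6pdx were lost without line 1290, at adjusted p-values of 0.0156 and 0.0180, and that on Pgd also without line 1293 (0.0132). Taldo1 and Tkt of the nonoxidative arm did not pass, at 0.03 and -0.18 untreated.

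Txnip, the inhibitor of thioredoxin, was lower in ΔIEC organoids. It measured 910.2, 909, 753 and 887 CPM in untreated and 896, 897, 1001 and 1001 CPM in treated fl/fl cultures, against 498, 541, 591 and 602 and 442, 416, 636 and 556 CPM in ΔIEC cultures. All 8 ΔIEC cultures were below all 8 fl/fl cultures. The log2 difference was -0.63 (SE 0.11, adjusted p = 0.000662) untreated and -0.89 (SE 0.11, adjusted p = 1.35e-05) with IL-22, and the untreated call was lost without line 1293 (adjusted p = 0.0132). Abcc2 was lower in ΔIEC organoids too, with log2 differences of -0.52 (SE 0.12, adjusted p = 0.00566) untreated and -0.67 (SE 0.13, adjusted p = 0.000659) with IL-22. The untreated call on Abcc2 was lost on leaving out any of 6 of the 8 untreated cultures, at adjusted p-values of 0.0118 to 0.0216, and both calls were lost without line 1292 (0.0642 untreated, 0.0120 with IL-22) or line 1294 (0.0205 and 0.0237). Prdx6 was lower in untreated ΔIEC organoids, with a log2 difference of -0.27 (SE 0.064, adjusted p = 0.00604), a call lost on leaving out any of 6 untreated cultures (0.0113 to 0.0310) or line 1290, 1292 or 1293 (up to 0.101).

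Among the mu-class genes only Gstm6 passed between genotypes, at 61.1, 75.3, 58.9 and 70.6 CPM in untreated fl/fl and 45.0, 42.3, 31.4 and 28.7 CPM in untreated ΔIEC cultures. Its log2 difference was -0.83 (SE 0.17, adjusted p = 0.00177) untreated and -1.04 (SE 0.20, adjusted p = 0.000737) with IL-22, and the untreated call was lost without line 1293 (adjusted p = 0.0184). Gstm1 and Gstm3 had -0.61 (SE 0.22, adjusted p = 0.0554) and -0.94 (SE 0.29, adjusted p = 0.0262) untreated and -0.72 (SE 0.23, adjusted p = 0.0221) and -1.0 (SE 0.31, adjusted p = 0.0171) with IL-22. Their ΔIEC and fl/fl cultures did not overlap, but the ΔIEC lines stood apart from each other, as the values above show.

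With IL-22, Gclm was higher in ΔIEC than in fl/fl organoids by 0.62 (SE 0.10, adjusted p = 0.000127), while the untreated difference was -0.01 (SE 0.10, adjusted p = 0.944). Sod1 was higher with IL-22 by 0.38 (SE 0.072, adjusted p = 0.000626), with 0.12 (SE 0.071, adjusted p = 0.226) untreated, and its IL-22 call was lost without line 1290 or 1294 (up to 0.0206). Sod2 was lower with IL-22, at -0.31 (SE 0.085, adjusted p = 0.00813), a call lost on leaving out any of 9 cultures (0.0104 to 0.0330) or 3 of the 4 lines (up to 0.0536). Nfe2l2 and Keap1 did not pass, with log2 differences of 0.02 and -0.06 untreated and 0.04 and 0.09 with IL-22, and intervals of 2 SE to each side of -0.11 to 0.15 for Nfe2l2 and -0.22 to 0.10 for Keap1 untreated. Hmox1 did not pass either, at -0.39 (SE 0.24, adjusted p = 0.272) and -0.36 (SE 0.19, adjusted p = 0.153).

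**Figure D5:**
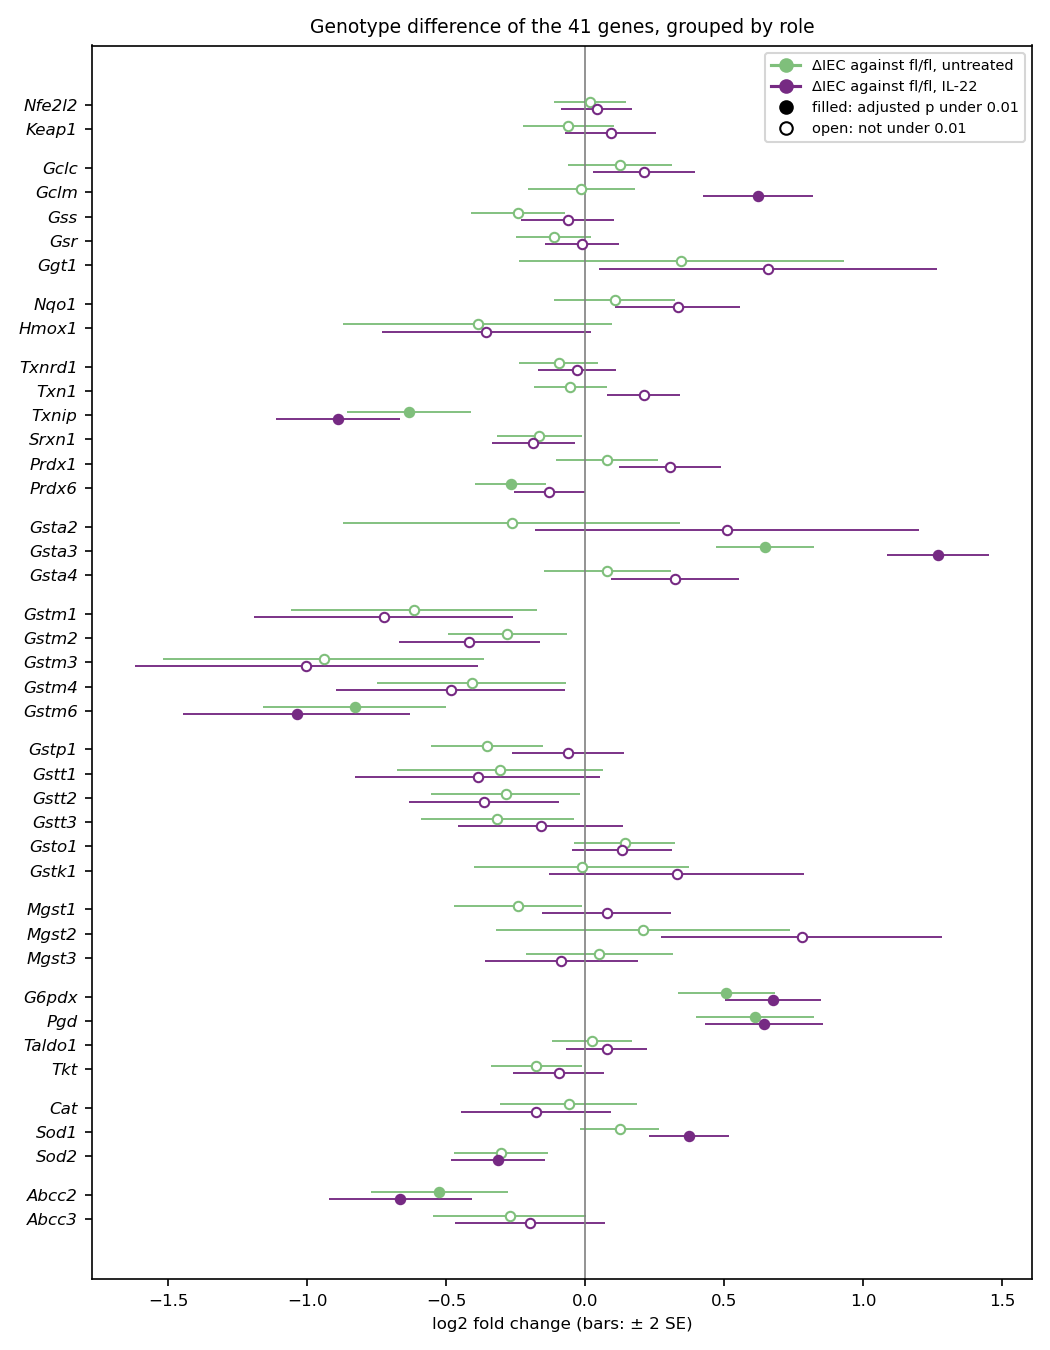
Log2 difference of ΔIEC against fl/fl organoids (horizontal axis, bars 2 SE to each side) for each of the 41 genes grouped by role, untreated (green) and with IL-22 (purple), filled where the adjusted p was under 0.01. Gsta3, G6pdx and Pgd lie above 0 and Txnip, Gstm6 and Abcc2 below 0 with both treatments.

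Markers of cell types also differed between genotypes in these cultures. Of 10 Paneth cell markers 6 were lower untreated and 8 with IL-22. Of 10 proliferation markers 4 were higher untreated and 9 with IL-22, and their summed level ranged from 1254 to 1704 CPM in untreated fl/fl and from 1857 to 2024 CPM in untreated ΔIEC organoids, against 888 to 1119 and 1459 to 1820 CPM with IL-22. Goblet cell markers were lower at 5 of 9 untreated and 6 of 9 with IL-22, while enterocyte markers were higher at 1 and lower at 1 of 15 untreated and higher at 3 with IL-22. Stem cell markers were higher at 4 and lower at 1 of 10 untreated, and higher at 4 and lower at 2 with IL-22. Their sums were 2002 to 2412 CPM in untreated fl/fl and 2577 to 2841 CPM in untreated ΔIEC organoids. With IL-22 they were 1146 to 1255 and 1255 to 1578 CPM. Enteroendocrine markers were lower at 2 of 9 untreated and 4 of 9 with IL-22. Over all tested genes 3.78% were higher and 5.98% lower untreated, against 9.91% and 9.84% with IL-22. No Paneth, goblet, proliferation or enterocyte marker was at 0 in any group. The part of these markers in the genotype differences of the members was not tested.

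Whether IL-22 acted differently in ΔIEC than in fl/fl organoids was tested as an interaction, which uses all 4 groups and so shares its samples with the comparisons above. By edgeR 0 of 41 members passed, beside 0.00796% of all tested genes higher and 0.00796% lower (0.0159% in all), and 4 members had an unadjusted p under 0.05, beside 7.26% of all genes. These were Gclm, Gsta3, Txn1 and Sod1, each with a positive interaction. The interaction of Gclm was 0.63 (SE 0.14, adjusted p = 0.196) and that of Gsta3 0.62 (SE 0.13, adjusted p = 0.132): the IL-22 difference of Gclm, taken within lines on the log2 CPM scale, was -0.83 and -0.86 in the fl/fl and -0.29 and -0.12 in the ΔIEC lines, and that of Gsta3 was -1.05 and -1.30 and -0.63 and -0.48. Both passed with organoid line as a block, at 0.64 (adjusted p = 0.00157) for Gclm and 0.62 (adjusted p = 0.00219) for Gsta3, where 0.446% of all tested genes passed in either direction. They also passed by DESeq2 (adjusted p = 0.00902 and 0.00731). There the adjustment ran over fewer genes: 27 of the 41 members and 2254 genes in all kept an adjusted p, with 4 higher and 11 lower. By edgeR without the filter on low counts both passed (0.00391 and 0.00437), where 31 of 25406 genes were higher and 49 lower. By limma-voom 0 members passed, with 0.63 for Gclm and 0.62 for Gsta3 (adjusted p = 0.0241 each). In that fit 10 members had an unadjusted p under 0.05, beside 11.0% of all genes. The cultures of a line were also summed, in a fit that did not pair the sums by line. The values there were 0.62 for Gclm and 0.61 for Gsta3 (edgeR, adjusted p = 0.9998 each). In that fit 0 of all genes passed and 2 members had an unadjusted p under 0.05, beside 2.73% of all genes. Gsr, Hmox1 and Cat, which moved in both genotypes, had interactions of 0.10, 0.03 and -0.12 with intervals of 2 SE to each side of -0.09 to 0.29, -0.57 to 0.64 and -0.48 to 0.25.

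The stretches of 250 bases before Gclm, chr3:122245307-122245556 (plus strand), Gsta3, chr1:21240335-21240584 (plus strand), Abcc2, chr19:43782058-43782307 (plus strand), and G6pdx, chrX:74428881-74429130 (minus strand), are printed because the genotype and interaction results turn on these members and they hold the core of the antioxidant response element. They come from RefSeq (GRCm38.p6) and were chosen after the values were seen. Capitals mark TGACNNNGC, searched on both strands.
Gclm: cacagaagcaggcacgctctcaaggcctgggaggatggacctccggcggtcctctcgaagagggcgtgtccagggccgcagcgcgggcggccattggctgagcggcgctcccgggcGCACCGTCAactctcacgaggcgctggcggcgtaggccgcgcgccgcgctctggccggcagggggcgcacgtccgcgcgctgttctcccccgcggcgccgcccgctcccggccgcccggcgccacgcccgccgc
Gsta3: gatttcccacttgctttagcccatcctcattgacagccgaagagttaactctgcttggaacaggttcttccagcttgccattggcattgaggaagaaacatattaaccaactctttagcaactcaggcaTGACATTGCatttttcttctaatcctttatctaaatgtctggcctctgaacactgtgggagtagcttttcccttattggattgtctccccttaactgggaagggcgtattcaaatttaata
Abcc2: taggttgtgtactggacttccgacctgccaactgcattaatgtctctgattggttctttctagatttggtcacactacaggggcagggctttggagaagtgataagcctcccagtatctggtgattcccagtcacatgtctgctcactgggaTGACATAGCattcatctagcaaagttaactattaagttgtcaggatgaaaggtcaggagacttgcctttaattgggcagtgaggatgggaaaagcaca
G6pdx: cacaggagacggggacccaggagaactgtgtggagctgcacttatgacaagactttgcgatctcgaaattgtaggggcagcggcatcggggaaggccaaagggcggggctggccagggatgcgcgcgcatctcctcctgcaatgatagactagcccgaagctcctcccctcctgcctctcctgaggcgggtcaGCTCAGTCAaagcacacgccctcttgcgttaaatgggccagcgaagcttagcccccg
Of 34 members with a RefSeq window, 12 held the core in 14 of their 46 windows (Nfe2l2, Gclm, Ggt1, Txnrd1, Srxn1, Prdx1, Gsta3, Mgst1, G6pdx, Pgd, Sod1 and Abcc2), and 12.4% of 32851 windows of the same length held it. Of these 12, Srxn1 and Pgd rose and Gsta3 and Abcc2 fell with IL-22 in both genotypes, Gclm, Mgst1 and Sod1 fell in fl/fl organoids and did not pass in ΔIEC, and Nfe2l2, Ggt1, Txnrd1, Prdx1 and G6pdx passed in neither. No window was used for Hmox1, Gsr, Gclc, Prdx6, Gsta4, Gstt2 and Abcc3.

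Other genes of the same pathways were taken from 3 lists written from general knowledge, with earlier results of these data known. The lists leave out the glutathione peroxidases. Of 28 tested further glutathione genes, 6 rose and 7 fell with IL-22 in fl/fl and 5 rose and 4 fell in ΔIEC organoids, with median log2 fold changes of -0.28 and -0.04. Over all tested genes 10.6% rose and 10.2% fell in fl/fl, and 9.83% rose and 7.65% fell in ΔIEC organoids. Slc7a11, the cystine importer that feeds glutathione synthesis, rose by 0.98 (SE 0.12, adjusted p = 3.00e-06) in fl/fl and 1.17 (SE 0.11, adjusted p = 1.77e-07) in ΔIEC organoids, and was higher in ΔIEC than fl/fl organoids by 0.52 untreated and 0.72 with IL-22. Its partner chain Slc3a2 rose by 0.36 in fl/fl and 0.49 in ΔIEC. Gstm7, a further mu-class gene, fell with log2 fold changes of -1.33 and -1.59, and zeta-class Gstz1 with -0.73 and -0.44. Between genotypes 2 were higher and 1 lower with each treatment, beside 3.78% and 5.98% of all tested genes untreated and 9.91% and 9.84% with IL-22. Abcc4, an exporter, was higher by 0.79 untreated and 0.86 with IL-22. Gstp3 was lower untreated, at -0.90, with -0.61 (SE 0.19, adjusted p = 0.0192) in treated organoids, and Ggt7 lower with IL-22, at -0.80, with -0.16 (SE 0.18, adjusted p = 0.572) untreated.

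Of 16 further thioredoxin and peroxiredoxin genes, 1 rose and 4 fell with IL-22 in fl/fl and 1 rose and 2 fell in ΔIEC organoids. The shares of all tested genes were 10.6% and 10.2% in fl/fl and 9.83% and 7.65% in ΔIEC organoids. Sesn1, a stress-induced sestrin, fell with log2 fold changes of -1.28 (SE 0.14, adjusted p = 1.09e-06) and -1.59 (SE 0.16, adjusted p = 3.47e-07) and was lower in ΔIEC organoids, with log2 differences of -0.89 untreated and -1.20 with IL-22. Sesn3 fell with -0.71 and -0.87, and Sesn2 rose by 0.47 and 0.55. The copper chaperone of Sod1, Ccs, fell in fl/fl organoids with -0.71, and had -0.57 (SE 0.18, adjusted p = 0.023) in ΔIEC. With IL-22, Prdx4 was higher in ΔIEC than in fl/fl organoids by 0.49 and Txnrd3 lower, at -0.78, with 0.25 (SE 0.13, adjusted p = 0.179) and -0.50 (SE 0.22, adjusted p = 0.109) untreated.

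Of 38 further NRF2 pathway and target genes, 7 rose and 10 fell with IL-22 in fl/fl and 6 rose and 6 fell in ΔIEC organoids. Among all tested genes 10.6% rose and 10.2% fell in fl/fl, and 9.83% rose and 7.65% fell in ΔIEC. Aldo-keto reductase Akr1b8 rose by 1.22 (SE 0.10, adjusted p = 1.36e-08) and 1.27 (SE 0.093, adjusted p = 4.00e-09). Epoxide hydrolase Ephx1 fell with -1.11 and -0.94 and was lower in ΔIEC organoids, at -0.81 untreated and -0.64 with IL-22. H6pd, which makes NADPH in the endoplasmic reticulum, rose by 0.73 and 0.60, and Idh1, a cytosolic source of NADPH, by 0.59 and 0.87. Between genotypes 5 were higher and 5 lower untreated, beside 3.78% and 5.98% of all tested genes. With IL-22, 12 were higher and 6 lower, beside 9.91% and 9.84%. Bach1, a repressor that competes with NRF2 at the antioxidant response element, was lower in ΔIEC organoids, with log2 differences of -0.79 untreated and -0.85 with IL-22. Akr1c13 and Ugdh were higher by 0.58 and 0.55 untreated and by 1.25 and 0.81 with IL-22, and the glycine transporter Slc6a9 was lower, at -0.98 and -1.03.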

How the data were processed

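Counts per gene were analysed for 16 organoid cultures in 4 groups of 4, grouped by the sample labels. The authors trimmed paired-end reads with cutadapt, aligned them to mm10/GRCm38 with TopHat2 and counted reads on genes with HTSeq. The deposited values are whole-number counts, with no normalization. The labels and the study name different library kits, and the annotation release and the strand setting of the counting are not given in the sources used here. Counts outside genes, ambiguous or not unique, 61.7% to 63.7% of a culture's total, stayed out of library sizes and tests. Symbols and exon lengths came from GENCODE vM21 for 49326 of 49585 genes (99.5%).

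Tests used edgeR 4.0.16 in R 4.3.3 (TMM scaling, filterByExpr, quasi-likelihood, one fit of 4 group means, 12559 genes tested), two-sided, with Benjamini-Hochberg adjustment over all tested genes and a threshold of 0.01. SE is the absolute log2 fold change over the square root of F. Treated and untreated cultures of the same line, paired by the labels, had correlated deviations from their group means (0.263 to 0.438 in fl/fl, 0.0563 to 0.321 in ΔIEC, against -0.435 to -0.218 and -0.352 to -0.0779 between lines), so a block on the line was fitted to the treatment effects and their interaction. The steps were tested on simulated data. Alternatives used DESeq2 1.42.0, limma-voom 3.58.1, RLE scaling, no filter, summed lines without pairing, the compared groups only, a threshold of 0.05, and each culture or line left out. The members and lists were chosen with earlier results of these data known. The text gives full values for Nfe2l2, Keap1 and up to 8 members per comparison with the smallest p, ranges for the rest, and up to 3 genes per pathway list and comparison.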

Additional observations from a re-analysis of the deposited data

Results flagged for a closer look

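In 11 of the 164 groups of 4 cultures (41 genes in 4 groups), 1 culture lay further from its nearest neighbour than Dixon's 95% critical value allows, and chance alone flags about 1 group in 20. In IL-22–treated fl/fl organoids these were Keap1 in replicate 2 (95.6 CPM), Txnrd1 in replicate 2 (385 CPM) and Prdx6 in replicate 3 (573 CPM). In untreated fl/fl organoids, replicate 3 stood apart for Txnip (753 CPM), Tkt (1023 CPM) and Sod1 (308 CPM), and replicate 2 for Prdx6 (526 CPM). In IL-22–treated ΔIEC organoids they were Gsta2 in replicate 3 (7.25 CPM), G6pdx in replicate 2 (196 CPM) and Tkt in replicate 1 (665 CPM), and in untreated ΔIEC organoids Gstk1 in replicate 4 (18.3 CPM).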

How the results depend on the processing

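Of the values per member and alternative, 4981 kept their sign and their side of the threshold, 123 lost and 113 gained a call, and 181, in 54 pairs of member and comparison, changed sign without a call on either side. No called value changed sign. Counts of members changed most with the cultures of a line summed, which left 2 higher and 6 lower with IL-22 in fl/fl, 2 and 5 in ΔIEC organoids, 0 and 0 between untreated genotypes, 2 and 0 between IL-22–treated genotypes, and 0 and 0 in the interaction, where the 2 members gained with the block did not pass. With the replicate block of organoid line, IL-22 raised 11 members in ΔIEC organoids and the interaction counted 2 higher; the pairing changed no other count by over 1.5 times, and the members whose call it changed are named above. DESeq2 gave 7 higher with IL-22 in fl/fl and 2 higher in the interaction, limma-voom 7 higher in fl/fl, and no filter on low counts 9 higher between IL-22–treated genotypes and 2 higher in the interaction. Over all tested genes DESeq2 counted 1440 of 14075 and 4 of 2254 there. Limma-voom counted 1715 of 12559, and the fit without the filter 1464 and 31 of 25406. At an adjusted p under 0.05 the counts were 7 higher in fl/fl with IL-22, 8 lower between untreated genotypes, and 10 higher and 8 lower between IL-22–treated genotypes. Of the 12559 tested genes 1957, 1438, 2116 and 2052 passed in the same comparisons and directions.

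Leaving out a line keeps 2 cultures of 1 line per treatment in its genotype. With 1 line left out, members higher with IL-22 in ΔIEC organoids numbered 4 (without 1290) and 3 (without 1292). Members higher between untreated genotypes fell to 1 without 1290, those lower numbered 1 without 1293 and 8 without 1294, and those higher between treated genotypes numbered 9 without 1292. Over all tested genes the matching counts were 708 and 495 with IL-22 in ΔIEC organoids. Between untreated genotypes they were 126 higher without 1290, 425 lower without 1293 and 948 lower without 1294. Between treated genotypes 955 were higher without 1292. Members lower with IL-22 in fl/fl organoids numbered 11 without 1293 and 14 without 1294, beside 654 and 493 of all tested genes. In ΔIEC organoids they numbered 8 without 1290 and 8 without 1292, beside 466 and 418. With 1 culture left out, the counts ranged from 3 to 4 higher and 15 to 18 lower with IL-22 in fl/fl, 7 higher throughout and 10 to 13 lower in ΔIEC, 3 higher throughout and 2 to 5 lower between untreated genotypes, 5 to 9 higher and 3 to 5 lower between treated genotypes, and 0 in the interaction. The low of 2 came without untreated ΔIEC replicate 2, 3 or 4 or untreated fl/fl replicate 1, and the high of 9 without IL-22–treated ΔIEC replicate 3. Of all tested genes 499 to 609 were lower in the former fits, and 1359 were higher in the latter. Where no value shows it, the cause was not tested.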
